A study of Mus musculus with 4 samples.

Results

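Histones are the proteins on which DNA is wound, and their genes were taken here as every gene symbol that began with Hist1h, Hist2h, Hist3h, Hist4h, H2af, H3f3 or H1f in the tables of a study of the mouse gene Sox30. The rule named 82 of 22552 symbols: 10 for linker histones, 26 for H2A, 19 for H2B, 14 for H3 and 13 for H4. By kind, 63 were replication-dependent genes, 11 were replication-independent variants, 5 were testis variants, 1 was the oocyte linker H1foo and 2 were labelled as pseudogenes. RNA was sequenced from Hoechst-stained haploid cells, labelled as round spermatids, that had been sorted by fluorescence from testes of male mice aged 23 days. Wild-type mice gave 2 libraries, and 2 came from Sox30 knockout mice, which lack a transcription factor of the SOX family. The strain label read DBA/C57/ICR and DBA/C59/ICR for wild-type libraries 1 and 2, and DBA/C58/ICR and DBA/C60/ICR for knockout libraries 1 and 2. These labels differ only in a number that goes up by 1 in the order of the samples, and whether they name different strains is unsettled. The sources used here do not give the knockout allele or the number of animals behind a library, nor do they say that 2 libraries came from different animals. The p-values therefore measure only how far these libraries spread, which may be technical. Levels were FPKM, fragments scaled by transcript length and library size, and log2 changes below are knockout minus wild type on log2(FPKM + 1), with their standard error (SE).

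A nucleosome is built from the core histones H2A, H2B, H3 and H4, and a linker histone binds where the DNA enters and leaves it. Replication-dependent histone genes lie in clusters, are transcribed mainly in S phase, and give messages that end in a conserved stem-loop in place of a poly(A) tail. Replication-independent variants are made outside S phase from polyadenylated messages. Male germ cells also make variants of their own, some in meiosis and some only in spermatids, before most histones are exchanged for transition proteins and then protamines.

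The 3′ stem-loop is shown first because it marks the messages that need no poly(A) tail, and poly(A) selection is not stated in the labels. It was found in the transcripts of 42 of the 63 replication-dependent genes, in H2afx of the 11 replication-independent variants, and in Hist1h1t of the 4 testis variants with a matched transcript. Outside the histone symbols 3 of 20136 symbols held it, or 0.0149%. Capitals below mark the 16 bases of the stem-loop, read on the transcript strand from GENCODE M21, for genes whose values are described below.
Hist1h1t: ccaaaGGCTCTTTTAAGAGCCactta
Hist2h2aa1: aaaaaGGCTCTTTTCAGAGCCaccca
Hist1h2bj: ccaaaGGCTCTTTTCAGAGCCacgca
Hist1h2bp: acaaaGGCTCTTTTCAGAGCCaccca
Hist1h3a: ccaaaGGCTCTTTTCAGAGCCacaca
Hist1h4a: ccaaaGGCCCTTCTCAGGGCCgccca
Hist1h4h: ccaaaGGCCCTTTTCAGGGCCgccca
All 10 replication-dependent H4 genes with a stem-loop had the stem that opens with GGCC, whereas those of the other classes had the stem that opens with GGCT. Among the 42 replication-dependent genes with the stem-loop, both knockout values lay below both wild-type values in 22 and above them in 6, where over all symbols 31.5% lay below and 10.9% above. Among the 21 without it in their annotated transcripts, the counts were 10 and 1.

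Promoters are shown for genes of the same class that moved in opposite directions, a pair of linker genes and a pair of H4 genes. They are RefSeq sequences of build GRCm38.p6, from 250 bases before to 50 after the start, written on the gene's own strand. Capitals mark matches, on either strand, to the CCAAT box, the TATAAA box, the cyclic AMP response palindrome TGACGTCA or the SOX core ACAAT, none of which overlap here.
H1fnt, chr15:98257258-98257557, minus strand: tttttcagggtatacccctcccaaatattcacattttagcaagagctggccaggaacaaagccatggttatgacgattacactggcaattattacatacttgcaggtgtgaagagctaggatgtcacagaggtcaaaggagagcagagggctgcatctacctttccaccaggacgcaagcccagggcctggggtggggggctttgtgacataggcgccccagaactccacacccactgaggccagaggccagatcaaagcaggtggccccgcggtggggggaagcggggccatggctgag
Hist1h1t, chr13:23695561-23695860, plus strand: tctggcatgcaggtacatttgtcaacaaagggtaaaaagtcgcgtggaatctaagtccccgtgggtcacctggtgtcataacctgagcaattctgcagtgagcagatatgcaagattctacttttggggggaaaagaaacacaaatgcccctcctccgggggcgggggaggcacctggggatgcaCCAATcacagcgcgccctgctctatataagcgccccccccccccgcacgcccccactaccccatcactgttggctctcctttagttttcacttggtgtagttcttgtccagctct
Hist1h4a, chr13:23761200-23761499, minus strand: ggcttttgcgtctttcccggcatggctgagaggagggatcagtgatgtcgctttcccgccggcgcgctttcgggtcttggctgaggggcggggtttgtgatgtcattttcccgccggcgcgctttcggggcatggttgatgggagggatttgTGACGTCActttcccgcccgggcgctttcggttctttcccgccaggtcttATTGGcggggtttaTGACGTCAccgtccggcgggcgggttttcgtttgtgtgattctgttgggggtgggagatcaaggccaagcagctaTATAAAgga
Hist1h4h, chr13:23530794-23531093, plus strand: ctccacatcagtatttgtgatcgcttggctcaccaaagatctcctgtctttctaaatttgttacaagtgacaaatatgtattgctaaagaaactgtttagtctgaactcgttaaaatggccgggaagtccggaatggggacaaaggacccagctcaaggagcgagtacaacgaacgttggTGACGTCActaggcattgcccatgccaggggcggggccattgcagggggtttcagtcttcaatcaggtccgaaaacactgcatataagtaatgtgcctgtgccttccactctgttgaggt
The H1fnt window held none of these letters, and that of Hist1h1t held 1 CCAAT. Over 73 promoters of 72 histone genes, CCAAT stood in 82.2%, against 37.4% of all 32851 promoters in the table. TATAAA stood in 49.3% against 13.6%, and ACAAT in 42.5% against 31.0%. TGACGTCA stood in 4 histone promoters (5.48%, against 1.79% of all), and these belonged to Hist1h4a, Hist1h4h, Hist1h2ag and Hist1h2bj. The last 2 genes are a divergent pair, so their windows lie side by side. Of the 4, Hist1h4h was higher in the knockout libraries and the other 3 were lower.

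Sox30 itself was lower in both knockout libraries, at 11.4 and 16.2 FPKM in wild-type cells against 1.46 and 3.16 FPKM in knockout cells (log2 change -2.19, SE 0.43, limma adjusted p = 0.0219). Depth is unknown, since FPKM carry no counts, and 5915 to 6414 symbols were listed at 0 in the wild-type libraries against 9329 and 11112 in the knockout libraries. Histone genes at 0 numbered 6 and 5 in wild-type cells against 15 and 30 in knockout cells. Of 11 round spermatid markers 7 passed the test as lower (63.6%, against 13.4% of all genes tested), and all 11 log2 changes were negative. Their summed level was 9736 and 6470 FPKM in wild-type cells against 1188 and 754 FPKM in knockout cells. Most of the wild-type sum came from Prm1 (5537 and 3145 FPKM, then 25.2 and 1.54 FPKM) and Tnp1 (1516 and 968 FPKM, then 4.82 and 0 FPKM). The 4 that did not pass were Acr, Crem, Tekt1 and Zpbp. None of the 11 spermatocyte markers tested passed, against 15.3% of all genes tested. At an unadjusted p under 0.05 there were 5, against 2860 of all 9124. The median log2 change of these markers was -0.87, with 10 of the 11 negative. Their list summed to 663 and 612 FPKM, then 655 and 516 FPKM, with Ccna1, the positive one, at 163 and 192 FPKM, then 369 and 210.0 FPKM. The spermatogonium list fell in 4 of 5 tested members, from sums of 66.4 and 67.8 FPKM to 17.5 and 13.5 FPKM. The lists for blood (2 of 4 tested fell, 248 and 148 FPKM to 9.32 and 0.461 FPKM), Sertoli (1 of 2 fell, 23.5 and 42.9 to 9.52 and 10.4, with Amh at 0 throughout), Leydig (2 of 2 fell, 60.3 and 37.3 to 0.0674 and about 0, with Hsd17b3 at 0 throughout) and peritubular or endothelial cells (1 of 2 fell, 9.84 and 16.5 to 1.59 and 2.23) were also lower. Their part in the histone results was not tested. In bulk RNA, fewer cells of a type and less RNA per cell cannot be told apart.

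The clearest changes among histone genes were falls, of the testis variants H1fnt and H2afb1 to 0 or close to it and of Hist1h4a. Calls nearer the threshold were falls of Hist1h3a, Hist1h2bj and Hist1h4k and rises of Hist1h1t and Hist1h4h (limma adjusted p of 0.0237 to 0.0398). The H4 class thus held changes in opposite directions. Testing required an average level of 1 FPKM or more, which 45 of the 82 genes met. Among these 45, 6 fell (13.3%) and 2 rose (4.44%) with the limma adjusted p threshold set at 0.05, where over all 9124 genes tested 13.4% fell and 1.95% rose. The median log2 change was -0.18 for the 45 and -0.23 for all genes tested. The share of histone genes that fell was thus near that of all genes, and 2 risen genes are too few to set against the background. With a pseudocount of 0.1 or with no filter on low values, 3 of the 8 calls remained, for H1fnt, H2afb1 and Hist1h4a. Without wild-type library 1 the calls of H1fnt and H2afb1 remained, and without wild-type library 2 no gene of the 9124 passed, with 1412 at an unadjusted p under 0.05. Leaving out a wild-type library takes the spread from the knockout pair alone, and leaving out a knockout library takes it from the wild-type pair. The wild-type pair was closer (SD of log2 values 0.36, against 0.64 for the knockout pair). Calls kept when a knockout library was left out are thus no support.

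**Figure D1:**
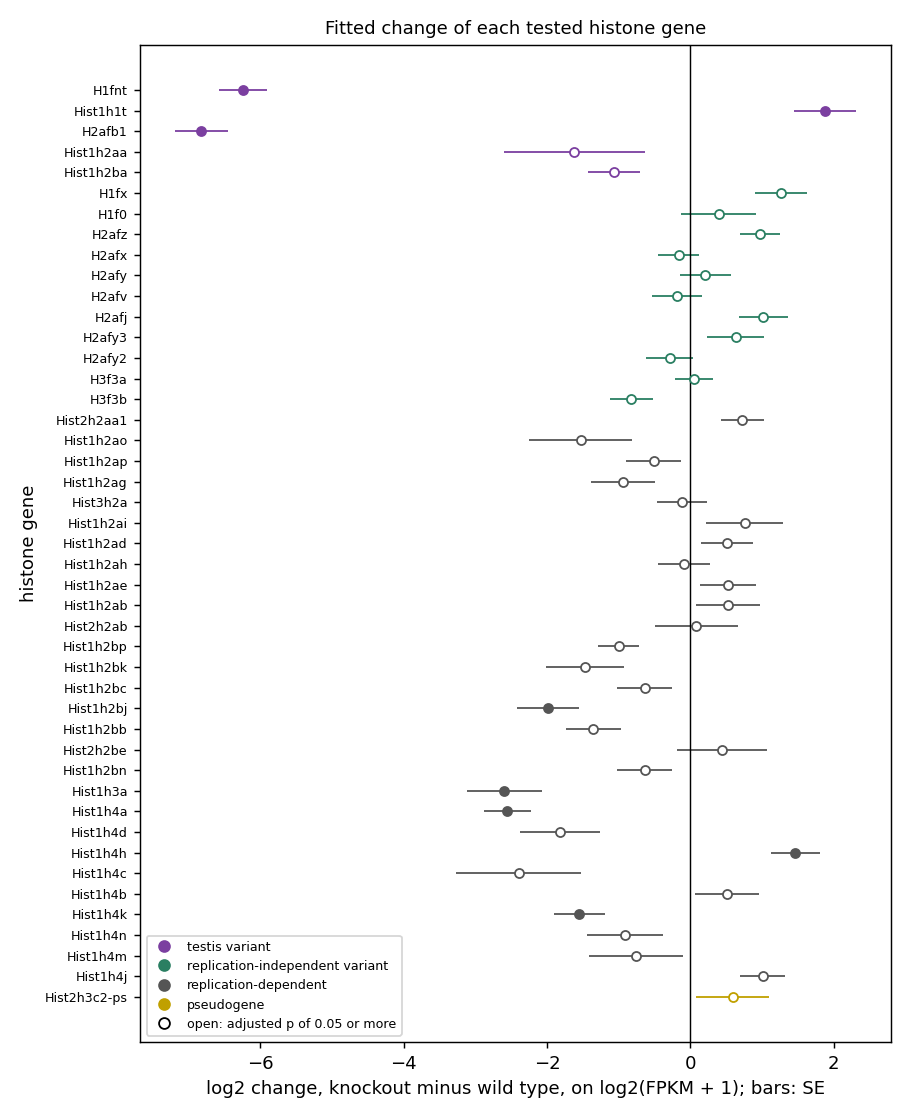
Fitted log2 change, knockout minus wild type on log2(FPKM + 1), of each of the 45 tested histone genes, with bars for the SE and filled points for an adjusted p under 0.05. H1fnt and H2afb1 lie far to the left, at a size that depends on the pseudocount, and Hist1h1t and Hist1h4h are the filled points on the right.

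Of the 45 tested genes, both knockout values lay below both wild-type values in 20 (44.4%) and above them in 10 (22.2%), against 38.6% and 22.2% of all genes tested. Over all 82 the counts were 38 below (46.3%) and 12 above (14.6%), against 31.5% and 10.9% of all symbols. Symbols at 0 in all 4 libraries can lie neither below nor above. They were 4762 of the 22552 symbols but 3 of the 82. The shares of 31.5% and 10.9% are lowered by them, here and wherever else they are given. The 37 genes that missed the filter had mean levels of at most 0.893 FPKM, and 35 of them were replication-dependent. Among these 37, 18 lay below and 2 above. H1foo, Hist1h1b and Hist2h4 were listed at 0 in all 4 libraries.

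The testis variants summed to 233 and 179 FPKM in wild-type cells against 12.5 and 11.8 FPKM in knockout cells libraries, a ratio of 0.0591. H1fnt, a spermatid linker histone known from work on chromatin condensation, had 74.1 and 78.8 FPKM in wild-type cells. Knockout library 1 held 0.0474 FPKM and knockout library 2 a listed 0 (log2 change -6.24, SE 0.33, limma adjusted p = 0.000480). Its wild-type values were close to each other and the groups did not come near to overlapping. H2afb1 was at 139 and 90.8 FPKM in wild-type cells against was listed at 0 in both knockout libraries, so no fold is given (limma adjusted p = 0.000480). The symbol names a short H2A variant of the testis. RefSeq gives it as an older name of both H2al2a on chromosome 2 and H2ab1 on chromosome X. In the deposited tables it stands between Nebl and Commd3, which lie on chromosome 2 as H2al2a does. H2ab1 has an entry of its own there, as Gm14920. The H2afb1 entry is thus more likely H2al2a, though no sequence was matched to it.

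Hist1h1t encodes H1t, the testis linker histone that is first made in meiotic spermatocytes. It moved the other way, from 1.06 and 1.31 FPKM in wild-type cells to 4.81 and 10.1 FPKM in knockout cells (log2 change 1.88, SE 0.44, limma adjusted p = 0.0392). Both knockout values were above both wild-type values, and they differed from each other by more than the wild-type pair did. Of the 11 spermatocyte markers tested 10 had a negative log2 change and 1 a positive one, and their part in this result was not tested. The call was lost with a pseudocount of 0.1 (limma adjusted p = 0.0598) and without the filter on low values (0.105).

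Hist1h2aa and Hist1h2ba encode TH2A and TH2B, partner variants that germ cells make from a shared divergent promoter. Hist1h2aa was at 12.7 and 3.63 FPKM in wild-type cells against 5.69 and 0 FPKM in knockout cells (log2 change -1.62, SE 0.98, limma adjusted p = 0.310). The groups overlapped, and the spread within each genotype was wide. Hist1h2ba was at 5.89 and 4.19 FPKM, then 1.98 and 1.73 FPKM (log2 change -1.07, SE 0.36, limma adjusted p = 0.109). Its knockout values both lay below the wild-type values, and the log2 change was -1.61 with a correction of each library for transcript GC content (the GC correction, limma adjusted p = 0.0392) and -0.47 with quantile normalization (0.424).

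**Figure D2:**
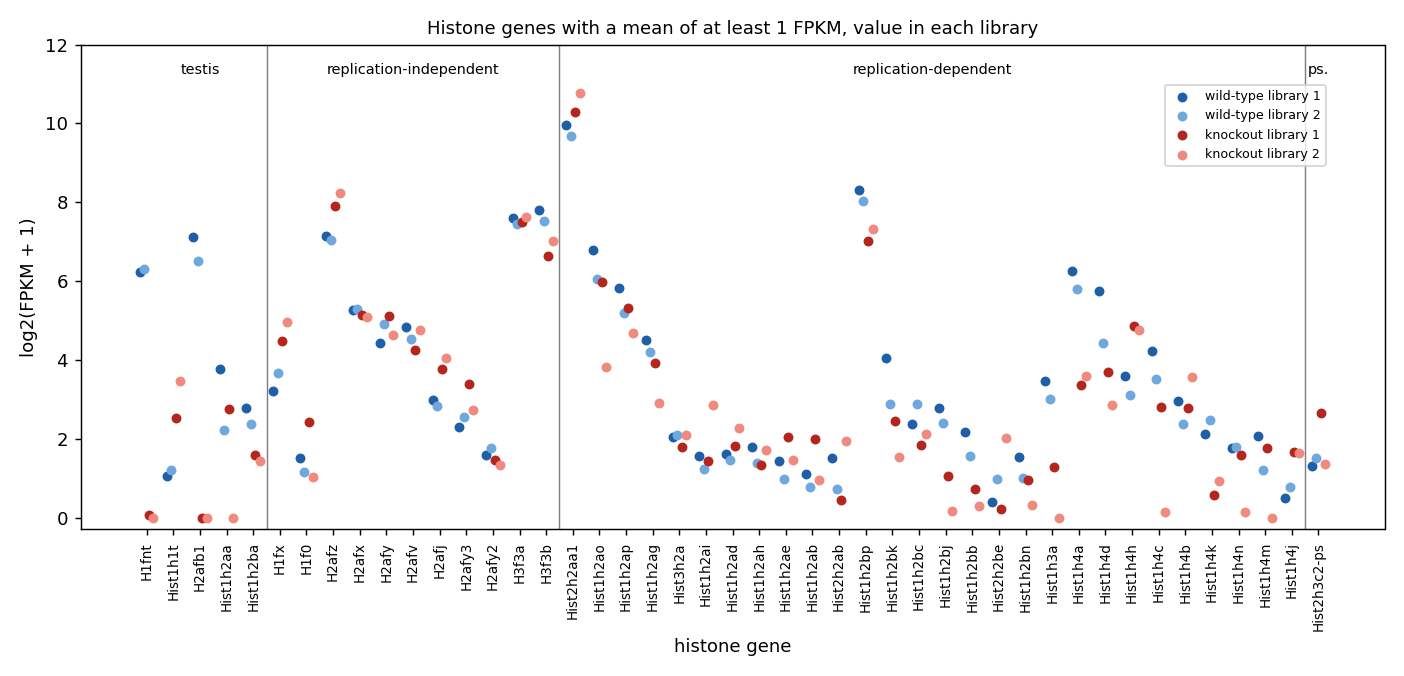
Level of the 45 tested histone genes on a log2(FPKM + 1) axis, with 1 point per library and colours for genotype and library number. H1fnt and H2afb1 separate by genotype more widely than any other gene shown, while the points of H3f3a overlap between genotypes.

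The makeup of linker histone message differed between the genotypes. H1fnt gave 83.2% and 83.4% of all linker FPKM in the wild type, and 0.147% and 0% in the knockout. H1fx, a replication-independent linker variant of many tissues, stood at 8.30 and 11.8 FPKM in wild-type cells against 21.1 and 30.1 FPKM in knockout cells (log2 change 1.26, SE 0.37, limma adjusted p = 0.0747). Its knockout values were above both wild-type values, though the test was not passed. Its transcript has the highest GC content of the histone genes (71.3%), and with the GC correction the log2 change was 0.31 (limma adjusted p = 0.630), whereas median-ratio scaling gave 1.45 (0.0443). Its share of linker FPKM was 9.32% and 12.5%, then 65.7% and 72.3%. Hist1h1t made up 1.19% and 1.39%, then 15.0% and 24.2%. H1f0, the linker variant of differentiated cells, overlapped between genotypes at 1.83 and 1.23 FPKM, then 4.33 and 1.03 FPKM. The 5 replication-dependent linker genes were low, at summed levels of 3.74 and 1.33 FPKM in wild-type cells against 1.84 and 0.418 FPKM in knockout cells, and none met the filter. Hist1h1a led them at 2.83 and 0.738 FPKM in wild-type cells and a listed 0 in both knockout libraries, while Hist1h1c (0.673 and 0.347, then 0.660 and 0) overlapped and Hist1h1e (0.188 and 0.108, then 1.18 and 0.418) was higher. All linker genes together summed to 89.1 and 94.5 FPKM, then 32.2 and 41.6 FPKM, a difference smaller than the fall of H1fnt.

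**Figure D3:**
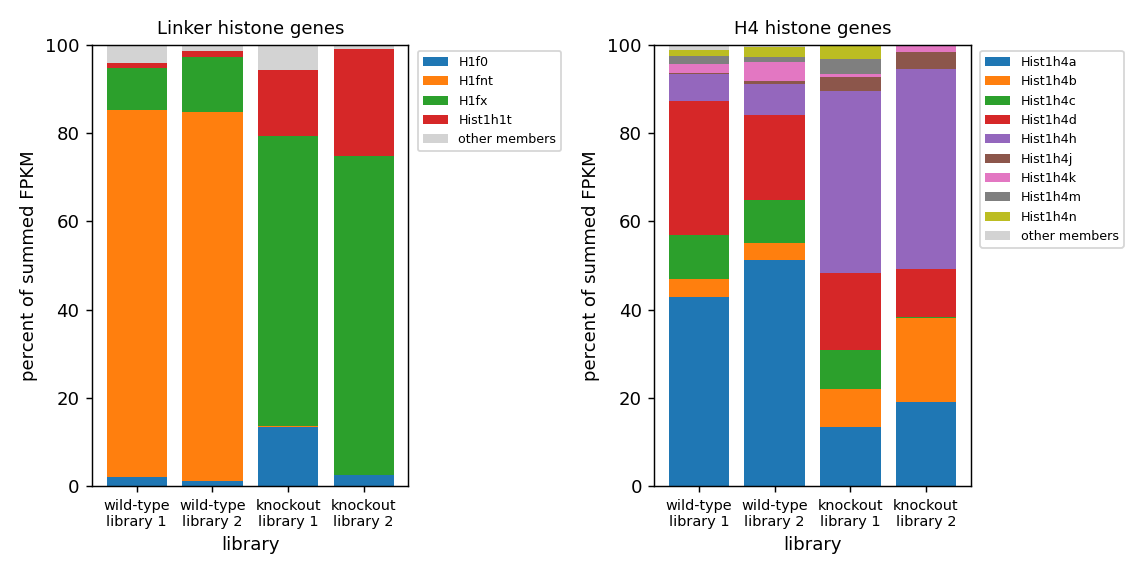
Share of each class's summed FPKM that came from its leading genes, with 1 stacked bar per library. In the linker class H1fnt fills 83.2% and 83.4% of the wild-type bars, and H1fx 65.7% and 72.3% of the knockout bars.

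None of the 11 replication-independent variants passed the test, where 15.3% of all genes tested did. At an unadjusted p under 0.05 there were 4, against 2860 of all 9124. Genes this few cannot be set against the background. Together the 11 variants summed to 663 and 602 FPKM in wild-type cells against 651 and 763 FPKM in knockout cells, and their median log2 change was 0.20. Both knockout values were above both wild-type values in 4 of them (36.4%) and below in 3 (27.3%), against 22.2% and 38.6% of all genes tested. The 4 above included H2afy3, counted here by its symbol, which GENCODE M21 lists as a processed pseudogene.

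H2afz encodes H2A.Z, a variant found at promoters. It had 141 and 130.1 FPKM in wild-type cells against 237 and 299 FPKM in knockout cells (log2 change 0.97, SE 0.28, limma adjusted p = 0.0735). The groups did not overlap, and the call was gained with quantile normalization (limma adjusted p = 0.0347) and with the GC correction (0.0471). H2afv, which encodes the close relative H2A.Z.2, overlapped at 27.6 and 22.2 FPKM, then 17.9 and 26.2 FPKM. H2afj, a further replacement H2A gene, was at 6.86 and 6.09 FPKM, then 12.7 and 15.7 FPKM (log2 change 1.02, SE 0.34, limma adjusted p = 0.105). H2afx is the variant that is phosphorylated at DNA breaks and over the sex chromosomes in meiosis. It stood at 37.7 and 38.3 FPKM, then 34.5 and 33.1 FPKM (log2 change -0.16, SE 0.29, limma adjusted p = 0.734), and its log2 change was 0.03 with median-ratio scaling, 0.16 with quantile normalization and -0.82 with the GC correction (limma adjusted p = 0.129). The sign also turned for H2afy2 with quantile normalization, and for H2afv with that setting, median-ratio scaling and the GC correction.

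The macroH2A gene H2afy overlapped at 20.5 and 28.9 FPKM, then 33.8 and 23.6 FPKM. H2afy2, the other macroH2A gene, was low at 2.02 and 2.38 FPKM, then 1.75 and 1.50 FPKM (limma adjusted p = 0.589). H2afy3, which GENCODE M21 lists as a processed pseudogene, was at 3.96 and 4.87 FPKM, then 9.52 and 5.67 FPKM (limma adjusted p = 0.324).

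H3f3a and H3f3b encode the same protein, H3.3, the replacement H3 of transcribed chromatin, and together gave most of the H3 FPKM. H3f3a overlapped at 192 and 174 FPKM in wild-type cells against 179 and 198 FPKM in knockout cells (log2 change 0.05, SE 0.26, limma adjusted p = 0.924). H3f3b was lower in both knockout libraries, at 221 and 183 FPKM, then 98.9 and 129 FPKM, but did not pass (log2 change -0.82, SE 0.29, limma adjusted p = 0.124), and the log2 change was -0.48 with the GC correction (0.350). H3f3a was 45.0% and 47.1% of all H3 FPKM in wild-type cells against 62.5% and 59.9% in the knockout.

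The replication-dependent genes summed to 1741 and 1353 FPKM in wild-type cells against 1603 and 2058 FPKM in knockout cells, but 1 gene, Hist2h2aa1, gave 71.6% of that. Without it the sums were 747 and 534 FPKM, then 345 and 295 FPKM, a ratio of 0.499. Of the 28 that were tested 4 fell (14.3%, against 13.4% of all genes tested) and 1 rose (3.57%, against 1.95%), with a median log2 change of -0.64. In 14 of them both knockout values lay below both wild-type values, or 50% against 38.6% of all genes tested. The classes differed in their counts, which were not tested against each other. Reads of these genes are hard to place: in 29 of the 63, over 50% of the 50-base words of the longest transcript also stand in another histone gene, whereas 1 of the 11 replication-independent variants shared over 10%. The sources used here do not say how the authors' counting divided such reads, so values of close copies are uncertain.

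**Figure D4:**
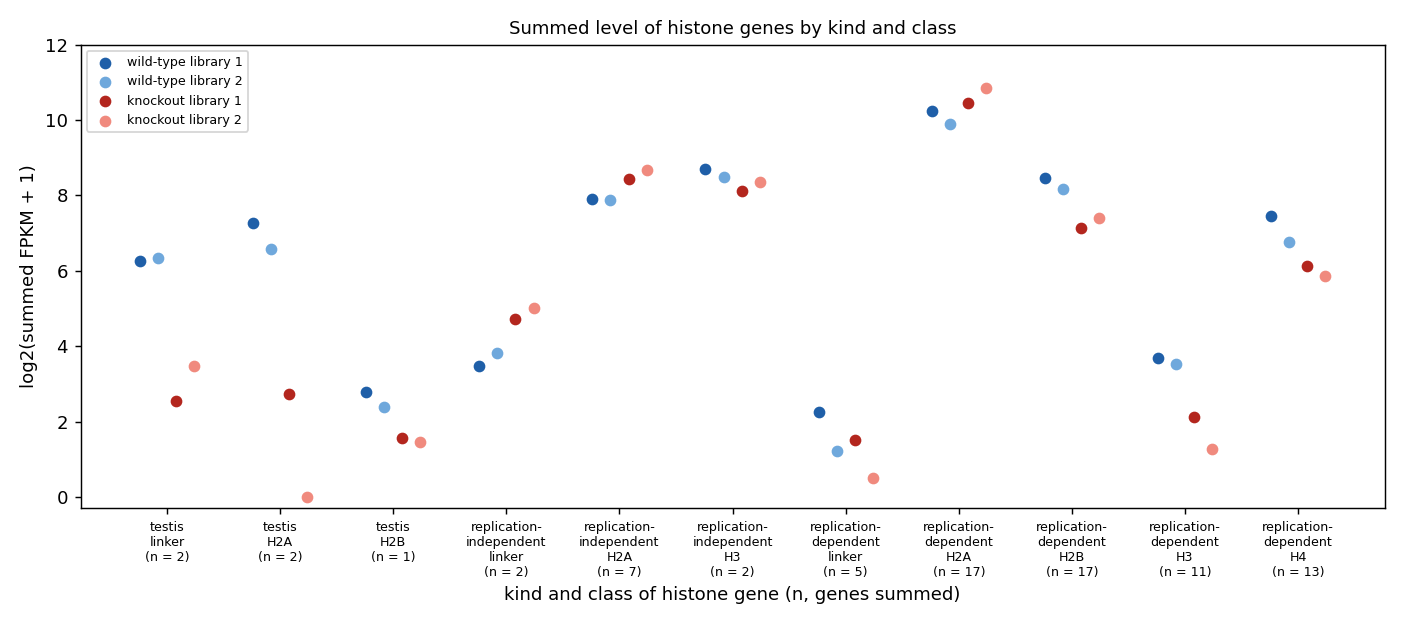
Summed FPKM of all members of each kind and class, on a log2(sum + 1) axis with 1 point per library. The testis linker and H2A sums and the replication-dependent H2B, H3 and H4 sums are lower in both knockout libraries, whereas the replication-dependent H2A sum, 90.1% of it from Hist2h2aa1, is higher.

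Among the 17 replication-dependent H2A genes none of the 11 tested passed in either direction, against 15.3% of all genes tested. None did at an unadjusted p under 0.05, against 2860 of all 9124. The median log2 change of the 11 was 0.08. Hist2h2aa1 was the highest of all histone genes, at 994 and 818 FPKM in wild-type cells against 1258 and 1764 FPKM in knockout cells (log2 change 0.72, SE 0.30, limma adjusted p = 0.165). Its knockout values were above both wild-type values, and it stood on 2 entries of nearly equal value, 497 each in wild-type library 1, that were summed. The log2 change was 0.02 with the GC correction (limma adjusted p = 0.979) and 0.20 with quantile normalization (0.395). Its neighbour copy Hist2h2aa2, all of whose words it shares, was listed near 0 in every library. Hist1h2ao was at 110 and 65.9 FPKM, then 62.1 and 13.0 FPKM, and Hist1h2ap overlapped at 55.4 and 35.6 FPKM, then 38.6 and 24.6 FPKM. These 2 genes also stand on 2 entries each and share 93.5% and 93.1% of their words with other histone genes.

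Of the 17 replication-dependent H2B genes 13 lay below in the knockout libraries and none above, against 31.5% and 10.9% of all symbols. Among the 7 tested 6 lay below, against 38.6% of all genes tested, and the other 7 of the 13 had a mean below 1 FPKM. The knockout libraries also listed more symbols at 0, and the part of this in the count was not tested. Of the 7 tested 1 fell (14.3%, against 13.4% of all genes tested), and their median log2 change was -1.0. Hist1h2bp gave 91.6% of the class at 316 and 261 FPKM in wild-type cells against 128 and 159.7 FPKM in knockout cells (limma adjusted p = 0.0713). It did not pass, though its groups did not overlap, and it passed with quantile normalization (limma adjusted p = 0.0178). Hist1h2bj was the H2B gene that fell, from 5.87 and 4.31 FPKM to 1.07 and 0.115 FPKM (log2 change -1.99, SE 0.43, limma adjusted p = 0.0312), a call lost with quantile normalization (0.0540). Hist1h2bk was at 15.6 and 6.41 FPKM, then 4.45 and 1.92 FPKM (limma adjusted p = 0.134), and Hist1h2bc at 4.17 and 6.32 FPKM, then 2.55 and 3.38 FPKM (0.303). Without Hist1h2bp the class summed to 35.8 and 23.2 FPKM, then 10.9 and 9.00 FPKM, so the lower level did not rest on that gene.

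Replication-dependent H3 genes had low FPKM beside those of H3.3. Poly(A) selection, which would leave out messages without a poly(A) tail, is not stated in the labels. Its part in this difference was not tested. The 11 genes summed to 11.8 and 10.5 FPKM in wild-type cells against 3.33 and 1.43 FPKM in knockout cells, a ratio of 0.213. Hist1h3a was the only one tested and fell from 9.95 and 7.07 to 1.42 and 0 FPKM (log2 change -2.60, SE 0.52, limma adjusted p = 0.0237). In 7 of the 11 both knockout values lay below both wild-type values, and in none above, against 31.5% and 10.9% of all symbols. Hist1h3d (0.451 and 0.772 FPKM, then 0.0138 and 1.25 FPKM) and Hist2h3b (0.201 and 0.275, then 1.68 and 0) were next in level and overlapped.

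The H4 genes, most of which encode the same protein, moved in both directions. Hist1h4a fell from 75.5 and 54.6 to 9.27 and 11.0 FPKM (log2 change -2.55, SE 0.33, limma adjusted p = 0.00463), and Hist1h4k fell from 3.38 and 4.56 to 0.478 and 0.916 FPKM (log2 change -1.55, SE 0.36, limma adjusted p = 0.0375). Hist1h4h rose from 11.1 and 7.56 to 28.2 and 26.0 FPKM (log2 change 1.47, SE 0.34, limma adjusted p = 0.0398). Hist1h4a gave 43.0% and 51.2% of H4 FPKM in wild-type cells against 13.5% and 19.2% in the knockout, while Hist1h4h gave 6.31% and 7.09%, then 41.2% and 45.3%. The leading H4 gene thus differed between the genotypes in these libraries. The Hist1h4h call was lost with the GC correction (log2 change 0.94, limma adjusted p = 0.158), and that of Hist1h4k with quantile normalization (0.147). Hist1h4a and Hist1h4h share 40.4% and 45.8% of their words with other histone genes, and Hist1h4k 71.5%.

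Other H4 genes also differed in direction, of which Hist1h4c, Hist1h4j and Hist1h4b were named after their values were seen. Hist1h4d was at 53.2 and 20.4 FPKM, then 11.9 and 6.22 FPKM (log2 change -1.82, SE 0.56, limma adjusted p = 0.0868). Hist1h4c was at 17.6 and 10.5 FPKM, then 5.98 and 0.106 FPKM (log2 change -2.39, SE 0.87, limma adjusted p = 0.129). Both had separate groups without passing. Hist1h4j was higher in both knockout libraries, at 0.411 and 0.719 FPKM, then 2.17 and 2.09 FPKM (limma adjusted p = 0.0945), and Hist1h4b overlapped at 6.82 and 4.18 FPKM, then 5.90 and 10.9 FPKM. The class summed to 176 and 107 FPKM, then 68.5 and 57.3 FPKM, a ratio of 0.446.

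Many H2A and H2B genes lie head to head, and 13 such pairs had starts within 1000 bases in GENCODE M21. In 4 pairs both members were lower in both knockout libraries, in 3 both overlapped, in 5 one member overlapped, and in 1 (Hist1h2ad and Hist1h2bf) the H2A member was higher and the H2B member lower. The H2B partner lay below in 9 pairs and the H2A partner in 4, where 31.5% of all symbols lay below. Some of these 9 were near 0, such as Hist1h2bf at 0.0173 and 0.00348 FPKM, then a listed 0 in both knockout libraries. By location, 4 of the 27 tested genes of the Hist1 cluster fell and 2 rose. Over all genes tested 13.4% fell and 1.95% rose. None of the 4 tested Hist2 genes passed, nor did the 1 tested Hist3 gene. Of 13 tested genes outside the clusters 2 fell.

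The histone genes are rich in G and C, and in these libraries the changes of all genes followed that property. Over 5 classes of rising transcript GC content the median log2 change of all genes was -0.68, -0.48, -0.26, 0.02 and 0.36. Of the 43 tested histone genes with a GC value, 25 were in the class of highest GC, where their median was -0.76. Median GC content was 58.1% for the tested histone genes and 49.2% for all genes tested. After correction the median log2 change was -0.53 for the histone genes and -0.16 for all genes, and the cause of the GC trend was not tested.

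Genes listed as histone-type, with symbols outside the rule, were mostly lower as well. Of 7 in the tables, 6 were tested, and 5 of these fell (83.3%, against 13.4% of all genes tested). None rose, and the median log2 change was -2.87. The list was chosen with earlier results of these data known. Cenpa, Gm1140, 1700012L04Rik and 1700024P04Rik met the filter only through their wild-type values. The share that fell is therefore a description and no support for a trait of such genes. Hils1, a linker-like histone of spermatids, is the best known of them (751.8 and 496 FPKM, then 3.40 and 0.402 FPKM, limma adjusted p = 0.000823). 1700024P04Rik, the H2B-like gene H2bl1 in RefSeq, fell from 265 and 189 to 0 and 0.250 FPKM (limma adjusted p = 0.000480), and 1700012L04Rik, the H2A-like gene H2al1m, fell from 15.3 and 10.6 to a listed 0 in both knockout libraries (0.00170). Cenpa, the centromeric H3, fell from 4.73 and 4.02 to 0.375 and 0.400 FPKM (limma adjusted p = 0.0124). Gm1140, which carries no histone name in RefSeq, fell from 1.92 and 2.36 to a listed 0 in both (0.0170). Whether it is a histone-type gene is unsettled. Gm14920, named H2ab1 in RefSeq, was higher, at 7.30 and 1.85 FPKM, then 18.2 and 24.8 FPKM, without passing (log2 change 2.19, SE 0.57, limma adjusted p = 0.0557). It is the H2A variant of the X chromosome that shares the older name H2afb1, and the 2 entries went in opposite directions.

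The machinery that makes and ends replication-dependent messages changed in single genes. Of 19 genes 13 were tested, 1 fell and 1 rose (7.69% each), with a median log2 change of -0.46. Over all genes tested 13.4% fell and 1.95% rose. Lsm10, a subunit of the U7 particle that directs cleavage after the stem-loop, rose from 22.4 and 20.3 to 64.3 and 51.2 FPKM (log2 change 1.39, SE 0.30, limma adjusted p = 0.0320). Cstf2, a cleavage factor subunit, fell from 5.21 and 7.76 to 0 and 1.16 FPKM (log2 change -2.33, SE 0.48, limma adjusted p = 0.0270). Slbp, the protein that binds the stem-loop itself, was named after its values were seen. It stood at 94.5 and 83.4 FPKM, then 97.0 and 101 FPKM (log2 change 0.15, SE 0.27, limma adjusted p = 0.734).

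Of 41 genes for histone chaperones and variant deposition 29 were tested. Among these 1 fell (3.45%, against 13.4% of all genes tested) and none rose (against 1.95%). Their median log2 change was 0.06. The one that fell was Dnajc9, a co-chaperone that binds H3 and H4, from 37.6 and 26.3 FPKM to 1.44 and 2.51 FPKM (log2 change -3.47, SE 0.39, limma adjusted p = 0.00289). Nasp, the chaperone that holds free H3 and H4 and was also named after its values were seen, had the groups overlap at 184 and 222 FPKM, then 161 and 250.3 FPKM. Of 22 genes of S phase and proliferating cells 12 were tested by limma and none passed, against 15.3% of all genes tested. At an unadjusted p under 0.05 there was 1, against 2860 of all 9124, and the median log2 change of the 12 was -0.01. The 2 highest of them, Pcna and Gins2, were at 32.0 and 27.4 FPKM, then 33.4 and 27.0 FPKM, and at 26.6 and 24.1 FPKM, then 49.4 and 40.7 FPKM.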

How the data were processed

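The authors deposited FPKM per gene symbol. Tools and build, credited to the submitters' processing notes, are TopHat2 (2.0.6), Cufflinks (2.0.2) and Cuffdiff on mm9. Roles, settings, poly(A) selection and use of strand were not given in the sources used here. Per the labels' protocols, the kit was NEBNext Ultra RNA. Entries of 1 symbol were summed (259 symbols) and libraries were not rescaled. Genes averaging 1 FPKM or more were fitted as log2(FPKM + 1) on genotype in limma 3.58.1 (R 4.3.3), moderated by empirical Bayes along a trend of variance on mean, with 2 residual and 3.84 prior degrees of freedom. P-values are two-sided and Benjamini-Hochberg adjusted over 9124 genes, with a threshold of 0.05. The log2(FPKM + 1) scale understates changes of low genes. Sums and shares are descriptions without a test.

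Transcripts came from GENCODE M21 and promoters from RefSeq, on a later build than the authors', matched by symbol. GC content was found for 87.9% of genes tested, and 80 of 82 histone genes matched 1 RefSeq gene. Named genes were every histone gene past the threshold, all testis and replication-independent variants, the 3 highest replication-dependent genes per class, list members past the threshold (otherwise the 2 highest) and Sox30. Other genes were named after their values were seen. The histone genes and lists were chosen with earlier results of these data known. Alternatives were pseudocounts of 0.1 and 5, no filter, a filter at 5 FPKM, scaling by median ratios or quantiles, GC correction, no trend, robust moderation, symbols listed once, leaving out each library, and a replicate block. The fit was tested on simulated data. Library numbers were not taken as pairs.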

Additional observations from a re-analysis of the deposited data

How the results depend on the processing

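Main counts were 1221 fallen and 178 risen of all genes, and 6 and 2 of histone genes. All genes risen became 113 with a pseudocount of 0.1, 62 without a filter, 283 with median-ratio scaling and 961 with quantile normalization, which moved the share of calls that were lower from 87.3% to 51.0%. Histone genes fallen and risen became 3 and 0 with a pseudocount of 0.1 and without a filter, and 3 and 1 at a mean FPKM of at least 5, where fewer genes are tested and 787 of all genes fell. Quantile normalization called 6 histone genes as risen. The median log2 change of all genes was -0.23 as deposited, -0.07 with median-ratio scaling and 0.24 with quantile normalization. The ratio of summed FPKM moved to 1.29 for replication-independent variants with median-ratio scaling (1.12 as deposited) and to 0.944 for replication-dependent genes with quantile normalization (1.18 as deposited). The cause was not tested.

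Leaving out 1 library gave 0 to 3071 fallen and 0 to 984 risen genes, and 0 to 19 fallen and 0 to 8 risen histone genes, with the lone library assumed to vary like the other genotype. The lowest counts came without wild-type library 2 and the highest without knockout library 1. The median log2 change of the histone genes ranged from -0.31 to -0.17.

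Deviations of same-numbered libraries from their genotype mean had a correlation of -0.20 over the genes tested. With 2 libraries per genotype this cannot show whether the numbers pair them. With the library number as a replicate block, 82 of all genes rose, 7 histone genes fell and 1 rose; Hist1h4h (limma adjusted p = 0.0882) and Hist1h4k (0.0714) no longer passed. A crossed replicate block, added after seeing the data, gave 390 risen genes, with 7 histone genes fallen and 3 risen.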
